A study of Homo sapiens with 4 samples.

Results

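The metallothionein genes MT1E, MT1F, MT1G, MT1M, MT1X and MT2A were followed in 2 human cancer lines, H1299 (from a lung carcinoma) and HCT116 (from a colorectal carcinoma). The 6 genes were taken by name from a deposited gene table of 43296 names, and their counts were summed over all features whose name before the first vertical bar equals the gene's. Each line had been grown with the solvent DMSO or with DAC (decitabine, a DNA methyltransferase inhibitor, 500 nM over 72 h) together with SB939 (a histone deacetylase inhibitor, 500 nM over 18 h). The medium with compounds was renewed every 24 h, all cells were at passage 5 to 10, and cells were profiled by 5′ single-cell RNA sequencing, in which counts lie near transcription start sites. Each of the 4 groups was 1 library, so no difference between groups was tested and no p-value is given. The treated libraries are called DAC+SB. The genes were chosen by name with CPM ratios of DAC+SB to DMSO, levels and shares of cells with a count in view. CPM stands for counts per 1000000 gene and transposable element counts. Those ratios, levels and shares are therefore a description. Where 4 values stand in a row, they are in library order: H1299 with DMSO, H1299 with DAC+SB, HCT116 with DMSO, then HCT116 with DAC+SB.

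Metallothioneins are small cytosolic proteins that bind zinc, copper and cadmium through clustered cysteines and buffer cells against free metal and oxidants. Their genes are switched on by zinc through MTF1, a zinc finger transcription factor that binds metal response elements in their promoters. MT2A is the most widely expressed isoform in human tissues, whereas MT1 isoforms vary between cell types. Promoter methylation of MT1E, MT1G and MT1M has been described in several cancers.

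The coding sequences are shown because all 6 genes are near copies of each other, which bears on how reads can be told apart. They were read from GENCODE v29 transcripts, 5′ to 3′, from the start codon to the stop codon, with in-frame cysteine codons in capitals.
MT2A: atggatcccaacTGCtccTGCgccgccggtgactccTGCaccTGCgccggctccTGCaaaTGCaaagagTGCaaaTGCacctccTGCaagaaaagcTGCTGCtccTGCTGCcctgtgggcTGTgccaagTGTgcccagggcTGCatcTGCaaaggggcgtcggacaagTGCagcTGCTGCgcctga
MT1X: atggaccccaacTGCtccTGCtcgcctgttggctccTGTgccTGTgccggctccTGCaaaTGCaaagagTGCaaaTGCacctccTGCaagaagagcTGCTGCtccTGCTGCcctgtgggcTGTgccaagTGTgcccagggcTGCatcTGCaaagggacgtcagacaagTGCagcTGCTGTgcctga
MT1E: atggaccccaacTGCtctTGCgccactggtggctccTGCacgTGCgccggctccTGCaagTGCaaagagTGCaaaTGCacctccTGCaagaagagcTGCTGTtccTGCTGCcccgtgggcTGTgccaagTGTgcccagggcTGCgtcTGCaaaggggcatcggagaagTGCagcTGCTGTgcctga
MT1F: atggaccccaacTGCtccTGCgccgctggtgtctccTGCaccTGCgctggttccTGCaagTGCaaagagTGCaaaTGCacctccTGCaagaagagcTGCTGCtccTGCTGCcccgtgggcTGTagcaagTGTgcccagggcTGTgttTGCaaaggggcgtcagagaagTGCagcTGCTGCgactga
MT1G: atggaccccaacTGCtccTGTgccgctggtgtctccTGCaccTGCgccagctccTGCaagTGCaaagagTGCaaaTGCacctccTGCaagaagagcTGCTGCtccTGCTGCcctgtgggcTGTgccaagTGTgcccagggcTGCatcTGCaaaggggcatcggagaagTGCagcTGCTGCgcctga
MT1M: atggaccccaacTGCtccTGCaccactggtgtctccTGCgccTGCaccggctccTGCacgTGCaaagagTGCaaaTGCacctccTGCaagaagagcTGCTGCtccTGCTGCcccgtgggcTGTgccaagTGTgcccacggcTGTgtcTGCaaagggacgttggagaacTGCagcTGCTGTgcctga
Each sequence had 186 bases and encoded 61 residues, of which 20 (32.8%) were cysteines, and the cysteine codons stood at the same places in all 6 lines as printed. Pairwise identity lay between 88.7% for MT1F with MT1X and 95.2% for MT1G with MT2A. The longest identical stretch of a pair ran from 32 bases (MT2A with MT1E, MT1F or MT1M) to 96 bases (MT1G with MT1X). The labels do not say how reads that match more than 1 of these genes were counted, so values of single isoforms are uncertain to that degree. In the H1299 DMSO library, 91986 counts of MT2A stood beside 2 of MT1E, 0 of MT1F, 3 of MT1G and 1 of MT1M. In HCT116 DMSO, 93125 counts of MT1E and 241126 of MT2A stood beside 5 of MT1G and 1 of MT1M.

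All 6 genes lie on chromosome 16 of GRCh38 (GENCODE v29), within a cluster of 16 annotated metallothionein genes and pseudogenes that spans 119 kb from 56565049 to 56684196. MT2A occupies 56608199 to 56609497, MT1E 56625475 to 56627112, MT1M 56632233 to 56633986, MT1F 56657694 to 56660698 and MT1X 56682424 to 56684196, all on the plus strand. MT1G occupies 56666731 to 56668065 on the minus strand. The transcript used for each gene has 3 exons.

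The RefSeq promoter table (GRCh38.p14) held 2 of the 6 members, MT2A and MT1X, and did not hold MT1E, MT1F, MT1G or MT1M. The 250 bases upstream of their RefSeq starts, parts of which lie inside the wider GENCODE gene spans, are shown with those of MT1H, a cluster gene without a count in either DMSO library. Capitals mark matches to the core of the metal response element, searched as TGCACNC and TGCGCNC on both strands with overlapping matches allowed.
MT2A: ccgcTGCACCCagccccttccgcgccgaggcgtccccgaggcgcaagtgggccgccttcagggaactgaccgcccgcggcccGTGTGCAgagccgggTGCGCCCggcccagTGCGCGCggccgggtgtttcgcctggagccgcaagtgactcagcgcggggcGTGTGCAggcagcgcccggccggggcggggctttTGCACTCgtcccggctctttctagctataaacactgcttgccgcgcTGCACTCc
MT1X: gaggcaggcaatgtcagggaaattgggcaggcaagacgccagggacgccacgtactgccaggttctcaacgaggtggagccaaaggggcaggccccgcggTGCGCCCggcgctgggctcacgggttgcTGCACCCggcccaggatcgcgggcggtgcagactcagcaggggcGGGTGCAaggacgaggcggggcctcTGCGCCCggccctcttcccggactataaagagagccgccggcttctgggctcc
MT1H: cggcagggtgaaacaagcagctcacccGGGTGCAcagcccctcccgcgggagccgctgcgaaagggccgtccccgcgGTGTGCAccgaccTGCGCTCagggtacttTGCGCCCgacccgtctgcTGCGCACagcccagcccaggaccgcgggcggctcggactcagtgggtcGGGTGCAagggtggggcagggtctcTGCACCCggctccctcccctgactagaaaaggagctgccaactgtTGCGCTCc
MT2A (chr16:56608334-56608583, plus strand) had 7 matches, MT1X (chr16:56682220-56682469, plus strand) 4 and MT1H (chr16:56669564-56669813, plus strand) 8. Of all 35116 promoters cut to the same 250 bases, 24.8% had at least 1 match, 0.370% had as many as MT1X or more, 0.0313% as many as MT2A or more and 0.0171% as many as MT1H or more. The same windows held 32 CG dinucleotides in MT2A, 22 in MT1X and 22 in MT1H, against a median of 11 over all promoters. MT4, also without a count in either DMSO library, and MT1B are in the table too and had 3 matches each, with 6 and 7 CG dinucleotides. The letters TATAAA were present upstream of MT2A and MT1X but not MT1H, and in 6.80% of all promoters. MT1H is printed as the entry with most matches, chosen after its value was seen. A match describes the sequence only. Binding of MTF1 and DNA methylation were not measured here.

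The libraries held between 3578 and 4327 cells and 38927267 to 64524196 gene and transposable element counts. The HCT116 DAC+SB library was the shallowest, at a median of 8449 counts per cell against 15784.5 to 17369.5 in the others, and its median mitochondrial share was 18.6% against 8.33% to 15.8%. Of 15158 cell barcodes, 131 occurred in more than 1 library. The summed H1299 markers (VIM, CDH2, AXL, ZEB1 and CAV1) were at 2865 and 1377 CPM in H1299 DMSO and DAC+SB and at 246 and 321 CPM in HCT116. Within the HCT116 sum VIM went from 47.0 to 265 CPM and CDH2 from 0 to 4.01, as higher values with DAC+SB, while AXL and CAV1 were lower, and the part of this in the results was not tested. The summed HCT116 markers (EPCAM, CDH1, CDX2, CDH17, ELF3 and ESRP1) were at 110 and 65.9 CPM in HCT116 DMSO and DAC+SB and at 0.139 and 9.15 CPM in H1299. CDH17 had no count in HCT116 DMSO. With DAC+SB, ESRP1 was at 2.92 CPM in H1299 and 2.41 in HCT116, and CDH17 at 0.529 and 0.385. EPCAM, CDH1, CDX2 and ELF3 were higher in treated HCT116 than in treated H1299. Within HCT116, CDH1, ELF3 and CDH17 were higher with DAC+SB, while EPCAM, CDX2 and ESRP1 were lower. Markers of leukocytes, endothelium and fibroblasts (PTPRC, PECAM1, COL1A1 and DCN) were at 0.279, 11.5, 8.24 and 18.9 CPM in library order, of which COL1A1 made up 0.124, 9.43, 8.14 and 18.0. These values were higher with DAC+SB in both lines, as the metallothioneins were, and their part in the results was not tested. PTPRC was at 0 in both DMSO libraries and at 0.128 CPM in both DAC+SB libraries.

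MT2A, the housekeeping isoform, was the highest member per kilobase of transcript in every library. In H1299 it stood at 1426 CPM (95% interval 1416 to 1435) with DMSO and at 3272 (3258 to 3286) with DAC+SB. In HCT116 it stood at 3849 (3834 to 3865) with DMSO and at 6700 (6675 to 6726) with DAC+SB. Over all features, the treated library was thus the higher one in both lines, and HCT116 was above H1299 under either treatment. The level ratio of DAC+SB to DMSO was 2.30 in H1299, or 1.20 (1.19 to 1.21) on the log2 scale, and 1.74 in HCT116, or 0.80 (0.79 to 0.81). Over features without a number after the name, MT2A had 14461, 20534, 26053 and 11042 counts in library order. Scaled to library size, that part was lower with DAC+SB in HCT116, and lower in treated HCT116 than in treated H1299. The intervals here and below are exact (Poisson for levels, conditional binomial for ratios, Clopper-Pearson for shares) and cover counting error only, not variation between cultures or captures.

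MT1X, an isoform that binds metal like the other MT1 proteins, was recorded mostly under a joined name, MT1X_RP11-343H19.2, whose counts cannot be divided between the 2 genes. Under its own name MT1X had 186, 521, 402 and 782 counts in library order. The joined name had 4662, 55787, 22198 and 90723 counts in the same order. The treated library was higher in both lines on either count. With the joined name added, MT1X was at 75.1, 902, 361 and 2351 CPM in that order, a ratio of 12.0 in H1299 (log2 3.59, 3.54 to 3.63) and 6.52 in HCT116 (log2 2.70, 2.68 to 2.72). Under its own name alone the log2 ratios were 1.53 (1.29 to 1.78) and 1.65 (1.47 to 1.82). The size of the MT1X difference thus depends on the joined name, with ratios of 12.0 against 2.90 in H1299 and 6.52 against 3.13 in HCT116.

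MT1E and MT1F were near 0 in H1299 DMSO but already present in HCT116 DMSO. MT1E had 2, 16996, 93125 and 61822 counts in library order, or 0.0310, 272, 1487 and 1588 CPM. Its log2 ratio was 13.10 (11.25 to 16.15) in H1299 and 0.10 (0.08 to 0.11) in HCT116, where fewer MT1E counts came with a smaller library. The treated H1299 library still lay below both HCT116 libraries. MT1F had 0, 844, 1964 and 2384 counts in the same order, or 0, 13.5, 31.4 and 61.2 CPM. If the listed counts are complete and the 0 is taken as 3 counts in the library, it was at least 291-fold higher in H1299 DAC+SB than in DMSO, a log2 ratio of at least 8.18. Over its unnumbered features alone, which are listed from 1 count, the log2 ratio was at least 6.29. In HCT116 its log2 ratio was 0.97 (0.88 to 1.05). MT1F therefore shared the order of MT1E over the 4 libraries at a much lower level per kilobase.

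MT1G and MT1M, isoforms described as silenced in several carcinomas, were near 0 with DMSO in both lines. MT1G had 3, 1968, 5 and 16301 counts in library order. These were 0.0465, 31.5, 0.0798 and 419 CPM. The log2 ratio was 9.41 for H1299 (7.86 to 11.68) and 12.36 for HCT116 (11.13 to 13.98). The intervals of the DMSO levels overlapped, whereas treated HCT116 was above treated H1299. MT1M had 1, 154, 1 and 144 counts, or 0.0155, 2.47, 0.0160 and 3.70 CPM. Its log2 ratio was 7.31 (4.81 to 12.63) in H1299 and 7.86 (5.36 to 13.17) in HCT116. MT1M was the member with the lowest treated level. With 1 count in each line under DMSO, the lines could not be ordered there.

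**Figure D1:**
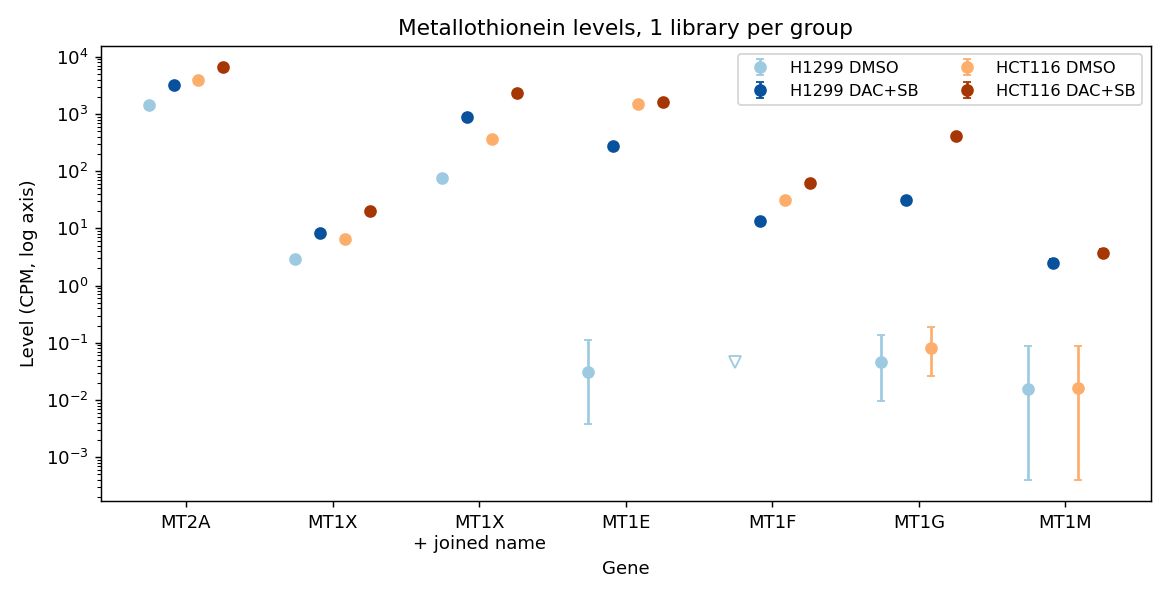
Level of each member (CPM, log axis) in the 4 libraries, with exact 95% Poisson intervals; an open triangle marks a count of 0, drawn at 3 counts. MT1E and MT1F are near or at 0 only in H1299 DMSO among these 4 libraries, MT1G and MT1M are near 0 in both DMSO libraries, and MT2A is at 1426 CPM or above throughout.

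The deposited table lists a numbered feature of a gene only from 10 counts in a library, and in H1299 DMSO no numbered feature of MT1E, MT1F, MT1G or MT1M was listed. When numbered features were counted only where both libraries of a line listed them, the H1299 log2 ratios became 9.08 for MT1E, at least 6.29 for MT1F, 5.28 for MT1G and 5.47 for MT1M. The HCT116 values became 7.50 for MT1G and 6.21 for MT1M. The treated library remained the higher one in each of these comparisons, but the size of these ratios is uncertain. Where both kinds of feature were listed, numbered features of HCT116 cells held 91.8% (91.6 to 92.0) of MT1E counts with DMSO and 96.7% (96.6 to 96.9) with DAC+SB. For MT1F in HCT116 the share was 44.7% (42.5 to 46.9) and 76.2% (74.4 to 77.9). For MT2A it was 84.3% and 89.9% in H1299 and 89.2% and 95.8% in HCT116. Over 8189 and 8861 genes with numbered counts in both libraries of H1299 and HCT116, this share differed by a median of 1.53 and 4.18 percentage points, DAC+SB minus DMSO. The labels do not say what the numbers denote.

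All 6 members had at least 100 counts in the higher library of each line. In H1299, 4 of 6 (MT1E, MT1F, MT1G and MT1M) were at least 4-fold higher with DAC+SB and none was 4-fold lower, beside 11.0% and 0.349% of 14610 genes. In HCT116, 2 of 6 (MT1G and MT1M) were at least 4-fold higher and none was 4-fold lower, beside 9.63% and 3.69% of 13539 genes. With the joined name, MT1X also passed 4-fold in both lines. The median log2 ratio of the members was 7.75 in H1299 with MT1F at its bound and 1.31 in HCT116, against -0.07 and -0.23 over all genes tested. These counts belong to the contrast that led to the choice of genes, so nothing is read from the comparison.

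Between the lines, 4 members had at least 100 counts in the higher DMSO library. Of these, MT1E (log2 -15.55, H1299 over HCT116) and MT1F (at most -9.40 if the listed counts are complete) were at least 4-fold lower in H1299, beside 8.11% of 13796 genes, and none was 4-fold higher, beside 9.92%. Over unnumbered features alone, H1299 DMSO had 2 counts of MT1E against 7659 in HCT116 DMSO, and 0 of MT1F against 1086, so the size of both values is uncertain. Both genes reached 100 counts only through HCT116, so that minimum fixed their calls. MT2A was at -1.43 (-1.44 to -1.42) and MT1X at -1.15 (-1.41 to -0.90). With the joined name MT1X was at -2.26 and also passed 4-fold. Under DAC+SB, 3 of 6 were at least 4-fold lower in H1299, beside 4.65% of 14875 genes, and none was 4-fold higher, beside 8.97%. The 3 were MT1E at -2.54 (-2.57 to -2.52), MT1F at -2.18 (-2.29 to -2.07) and MT1G at -3.73 (-3.80 to -3.66). MT2A at -1.03, MT1X at -1.27 and MT1M at -0.58 (-0.92 to -0.25) were also lower. Over all features, treated H1299 was therefore below treated HCT116 for each of the 6 genes. The log2 ratio of DAC+SB to DMSO was larger in H1299 by 0.40 (0.39 to 0.41, normal approximation to the log of Poisson counts) for MT2A and by 0.88 (0.83 to 0.93) for MT1X with the joined name. For MT1X under its own name the difference was -0.11 (-0.41 to 0.18). None of these differences has a replicate check.

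The 6 genes together, with the joined name of MT1X, went from 1501 to 4494 CPM in H1299 and from 5728 to 11123 CPM in HCT116, ratios of 2.99 and 1.94. Most of this sum was MT2A. Without it the other 5 genes were at 75.2, 1222, 1879 and 4423 CPM in library order, log2 ratios of 4.02 and 1.23. Per kilobase of transcript (406 bases for MT1G to 829 for MT1M), MT2A made up 91.6%, 62.6%, 62.3% and 49.8% of the members' summed level in library order. MT1X with the joined name made up 8.43%, 30.1%, 10.2% and 30.5%. MT1E made up 0.00222%, 5.82%, 26.9% and 13.2%, and MT1G reached 1.17% and 6.02% in the treated libraries. The MT1E share was thus larger in HCT116 under either treatment, whereas the MT1X share was nearly equal in both treated lines. Counts from the 5′ end may not scale with transcript length, so these shares carry that uncertainty. They also rest on a single annotated transcript per gene, of 786 bases for MT2A, whose GENCODE span begins upstream of its RefSeq start. A shorter MT2A transcript would give MT2A a larger share. Without scaling by length, MT2A was 1426 of 1501 CPM in H1299 DMSO and 6700 of 11123 CPM in HCT116 DAC+SB.

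**Figure D2:**
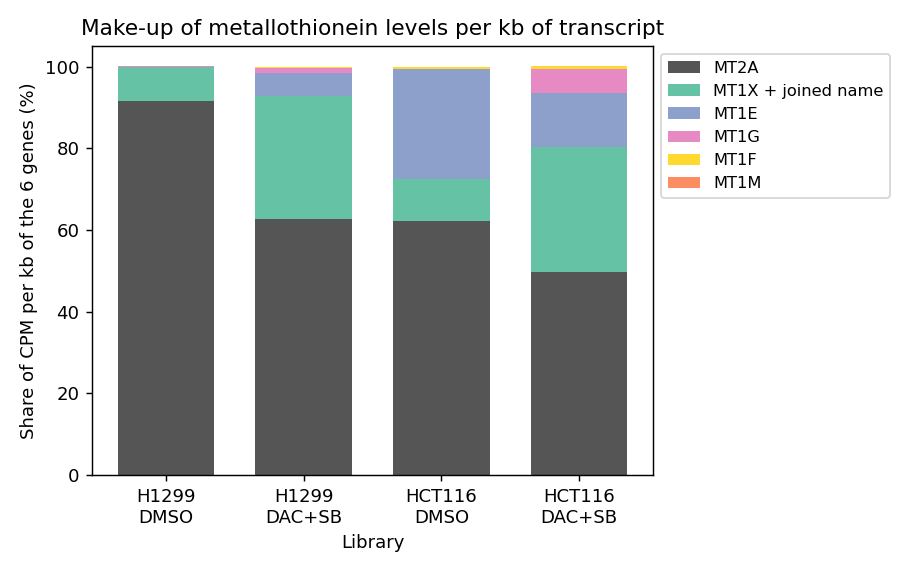
Share of each member in the summed level of the 6 genes (percent of CPM per kilobase of transcript) in the 4 libraries, with the joined name counted for MT1X. MT2A is 91.6% of H1299 DMSO and 49.8% of HCT116 DAC+SB, and MT1E is largest in HCT116 DMSO at 26.9%. Counts from the 5′ end may not scale with transcript length, and the shares depend on the transcript chosen for each gene.

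Other metallothionein genes and pseudogenes, most of them in the same cluster, were described from a list of 15. In H1299, 4 of the 4 with at least 100 counts were at least 4-fold higher with DAC+SB, and in HCT116 5 of 6, beside 11.0% and 9.63% of all genes. The genes called reached 100 counts only through DAC+SB and had 12 or fewer with DMSO. The minimum thus fixed their calls, and nothing is read from these shares. MT3, an isoform known from brain, had 12, 1226, 2 and 1456 counts in library order, log2 ratios of 6.72 and 10.19. MT1A had 0 and 639 counts in H1299 and 3 and 2642 in HCT116, log2 ratios of at least 7.78 and of 10.47. MT1H had 0, 182, 0 and 1509 counts, which made it at least 62.7-fold (H1299) or 809-fold (HCT116) higher with DAC+SB. The pseudogene MT1L had 3 and 1430 counts in H1299 and 0 and 478 in HCT116, 493-fold (log2 8.94) and at least 256-fold higher with DAC+SB. The bounds of MT1A, MT1H and MT1L take the listed counts as complete, although a numbered feature with fewer than 10 counts would not be listed. The ratios of MT3, MT1A and MT1L that are not bounds share this limit, so their size is uncertain. MT3, MT1A, MT1H and MT1L were all at 12 counts or fewer with DMSO in both lines. MT1B, under the same limit, had 4 and 133 counts in HCT116 (log2 5.74) and 0 and 14 in H1299. The pseudogene MT1DP had 4, 60, 340 and 280 counts in library order, with a log2 ratio of 0.41 (0.17 to 0.64) for HCT116. Like MT1E and MT1F, MT1DP thus had counts in HCT116 but was near 0 in H1299 with DMSO. How far reads from related genes were counted under its name was not tested. MT1CP had 58 counts and MT1JP and MT4 had 10 and 5 in HCT116 DAC+SB, with none in HCT116 DMSO. Of the 3 genes outside the cluster with a count, MT1P1 had 2 in each library, MT1P3 had at most 11 and MT1HL1 at most 1. No name equal to MT1IP, MT1XP1 or MT2P1 was listed.

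Genes on either side of the cluster were described in the same way. Of 8 neighbours, 6 had at least 100 counts, and 1 of these was at least 4-fold higher in each line, beside 11.0% and 9.63% of all genes. That gene was GNAO1, a G protein subunit gene that starts at -417 kb from the start of MT2A, with 8, 233, 4 and 167 counts in library order. GNAO1 reached 100 counts only through DAC+SB, so that minimum fixed its call. The nearest neighbours on either side were BBS2 and NUP93. BBS2, a ciliary protein gene at -87.9 kb, was at a log2 ratio of 0.10 in H1299 (-0.06 to 0.25) and of -0.46 in HCT116 (-0.62 to -0.30). NUP93, a nuclear pore gene at 122 kb, had -0.04 (-0.14 to 0.05) and 0.07 (-0.02 to 0.16). OGFOD1 and NUDT21 had log2 ratios of -0.58 and -0.32 in H1299 and -0.27 and -0.45 in HCT116, and HERPUD1 had 0.37 and 0.40. SLC12A3 had 0, 25, 4 and 22 counts and CETP 0, 25, 2 and 21 in library order. Both were thus higher with DAC+SB in each line but below the minimum of 100 counts. Over the 6 tested neighbours the median log2 ratio was 0.03 in H1299 and -0.10 in HCT116, beside -0.07 and -0.23 over all genes.

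**Figure D3:**
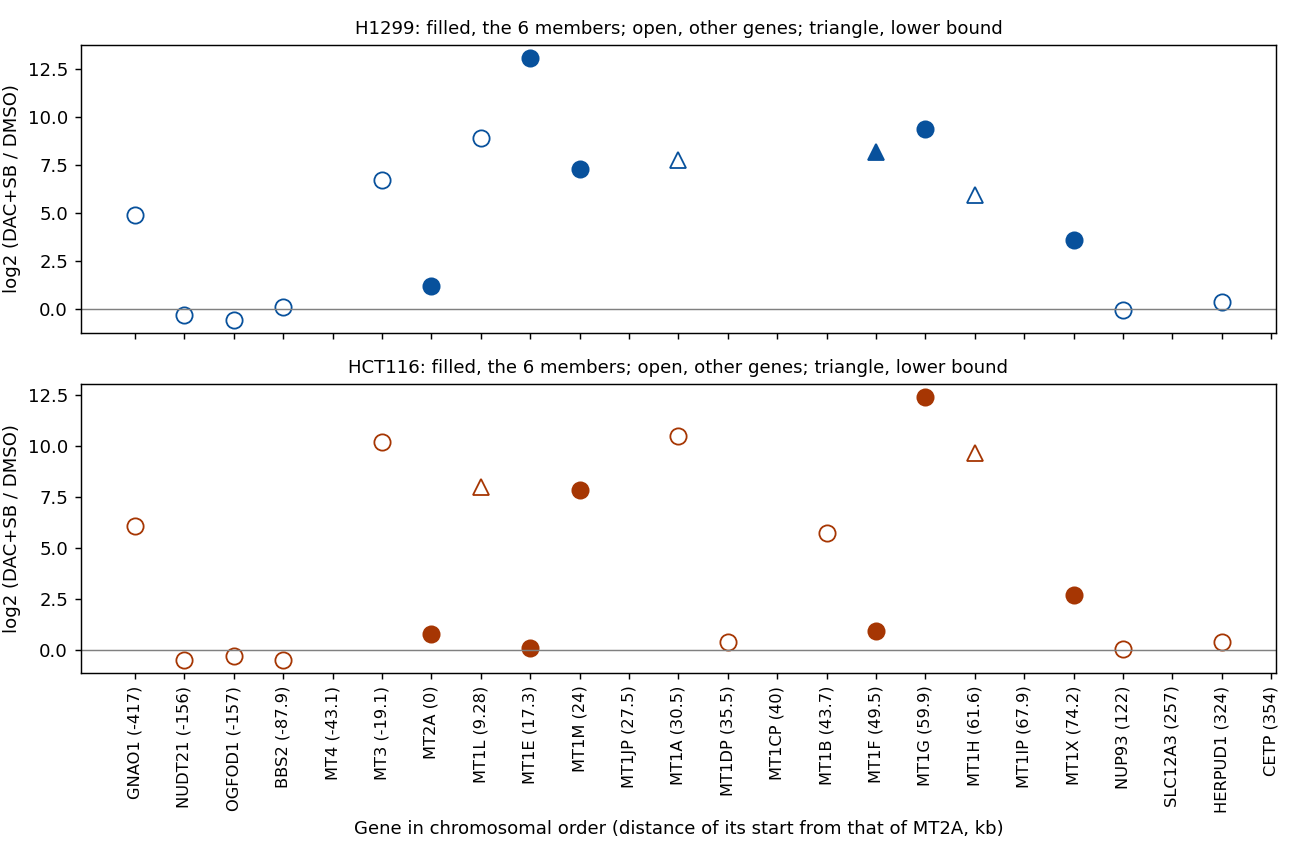
Log2 ratio of DAC+SB to DMSO for the cluster and its neighbours in chromosomal order, with the distance of each start from that of MT2A (kb); MT1X includes its joined name, triangles are lower bounds, and genes under 100 counts in both libraries of a line have no point. Cluster genes stand between 0.10 and 13.10, NUP93 stands at -0.04 and 0.07, BBS2 at 0.10 and -0.46, and GNAO1 is at 4.91 and 6.07.

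Cells were then compared after each was thinned to 3300 counts, which left out 402 HCT116 DAC+SB cells and none of the others. MT2A was detected in 91.8%, 96.6%, 99.4% and 97.6% of cells in library order, and MT1X with the joined name in 20.6%, 78.2%, 64.9% and 92.8%. The MT1X shares rest on the joined name, since under its own name alone they were 1.12%, 2.95%, 2.19% and 5.63%. MT1E was detected in 0 of 3578 H1299 DMSO cells, which at this depth allows up to 0.0838% of cells with a count (3 cells of the total; the exact interval ends at 0.103%), and in 41.9% (40.4 to 43.6) of H1299 DAC+SB cells. MT1G was detected in 0 of 3658 HCT116 DMSO cells, which at this depth allows up to 0.0820% by the same rule (exact interval to 0.101%), in 43.7% (42.1 to 45.3) of HCT116 DAC+SB cells and in 5.39% (4.69 to 6.17) of H1299 DAC+SB cells. MT1F was detected in 0, 3.62%, 9.10% and 16.1% of cells in library order, and MT1M in 0.966% and 0.841% of the cells of the treated libraries. The order of these shares in a library follows that of the levels, with MT2A highest and MT1M lowest in both treated libraries. Shares and levels come from the same counts, so nothing is read from that match. Without thinning, at the median depths given above, the shares in library order were 99.4%, 99.3%, 99.9% and 98.9% for MT2A, 57.0%, 95.9%, 95.6% and 97.1% for MT1X with the joined name and 0, 15.3%, 35.6% and 33.2% for MT1F. In the treated libraries, H1299 first, they were 68.9% and 87.9% for MT1E, 15.4% and 59.8% for MT1G and 3.38% and 2.24% for MT1M. The limits on 0 also take the listed counts as complete, although a numbered feature of MT1E or MT1G with fewer than 10 counts would not be listed. Unthinned H1299 DMSO had 2 cells with an MT1E count and HCT116 DMSO had 4 with an MT1G count. No cell type that should lack these genes was labelled in the libraries, and how far free RNA added to the counts was not tested.

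**Figure D4:**
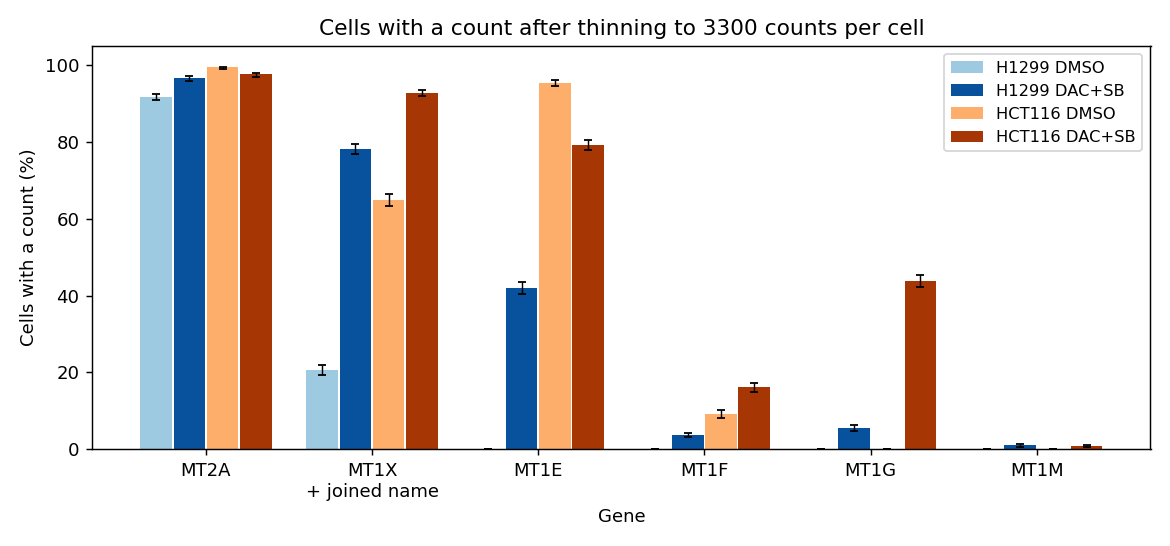
Percent of cells with a count of each member after thinning to 3300 counts per cell, with exact 95% binomial intervals, in the 4 libraries. MT1E goes from 0 to 41.9% in H1299, MT1G from 0 to 43.7% in HCT116, and MT2A is above 90% throughout.

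In HCT116 the spread of MT1E over cells differed while its mean was nearly the same. The mean thinned count was 4.95 in DMSO and 5.08 in DAC+SB, with medians of 4 and 3 and quartiles of 3 to 7 and 1 to 7. Its coefficient of variation was 0.693 and 1.30, and the 10% of cells with most MT1E held 24.5% and 41.1% of thinned MT1E counts. The share of cells with an MT1E count was 95.4% (94.6 to 96.0) in DMSO and 79.2% (77.9 to 80.4) in DAC+SB, opposite to the CPM, so no order of expression is read from it. MT2A was likewise more uneven in treated HCT116, with coefficients of variation of 0.701 and 1.05. In H1299 they were 0.903 and 0.890, at mean thinned counts of 4.68 and 10.4. Counting noise lowers the coefficient as the mean rises, so the H1299 values do not show that spread beyond it was alike. For MT1X with the joined name the coefficient was 1.08 in both HCT116 libraries, and for MT1F 3.34 and 2.74. The mean counts were 1.23 and 7.53 for MT1X and 0.102 and 0.202 for MT1F. For the same reason, these coefficients do not show whether the spread of these 2 genes beyond counting noise differed. Mitochondrial share moved with the treated HCT116 library, where 1086 of 4327 cells exceeded 25% against 364 of 3658 with DMSO. Without such cells the top 10% held 24.2% and 40.6% of MT1E counts.

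The summed count of the 6 genes per thinned cell, with the joined name, had medians of 4, 12, 17 and 24 in library order, with quartiles of 2 to 7, 6 to 19, 12 to 24 and 13 to 46. The highest cell had 46, 122, 123 and 407 of its 3300 counts from these genes. Cells without any such count numbered 268, 49, 11 and 26. At least 3 of the 6 genes were detected together in 39.1%, 65.9% and 82.3% of the cells of the last 3 libraries in order. In H1299 DMSO only MT2A and MT1X had a thinned count, so no cell there could hold 3.

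**Figure D5:**
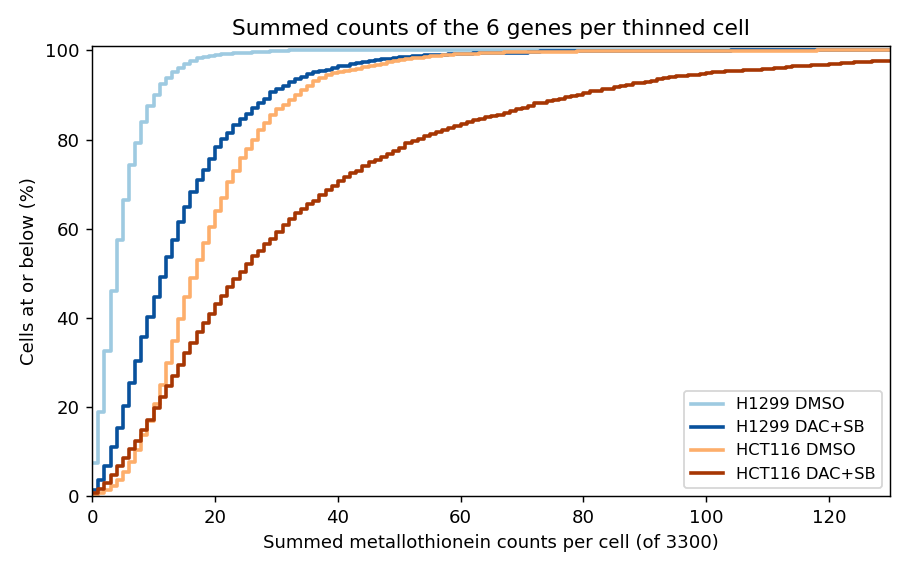
Cumulative percent of cells (vertical axis) by the summed count of the 6 genes among 3300 thinned counts (horizontal axis, shown to 130), 1 line per library. The medians are 4, 12, 17 and 24, and the HCT116 DAC+SB line has the longest upper tail, to 407.

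Within a library, isoforms varied together to different degrees. Spearman's correlation over thinned cells, which share 1 library and 1 depth, was 0.67 between MT2A and MT1E in HCT116 DAC+SB, 0.49 in HCT116 DMSO and 0.25 in H1299 DAC+SB. For MT2A with MT1X and its joined name it was 0.58 in HCT116 DAC+SB, 0.23 in HCT116 DMSO, 0.34 in H1299 DAC+SB and 0.18 in H1299 DMSO, where MT1X averaged 0.262 counts per cell. The pairs with MT1G in H1299 DAC+SB were lowest, at 0.08 with MT2A, 0.05 with MT1E and 0.11 with MT1X. In HCT116 DAC+SB they were 0.35, 0.35 and 0.41. The summed count of the 6 genes had correlations of -0.05, -0.13, -0.13 and -0.21 with mitochondrial counts in library order. Higher means leave more room for a correlation in counts, so these values are descriptions of each library. In treated H1299, the 1563 cells with an MT1E count averaged 12.5 counts of MT2A and the 2163 without it 8.84. In treated HCT116, the 1715 cells with an MT1G count averaged 27.4 counts of MT2A and 7.03 of MT1E, against 16.0 and 3.57 in the 2210 cells without it. The median mitochondrial share was 17.4% and 18.3% in these HCT116 cells, and its part in the result was not tested.

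Regulators and carriers of zinc were described from lists of related genes. MTF1, the zinc sensor, was at a log2 ratio of -0.04 in H1299 (-0.15 to 0.06) and of 0.77 in HCT116 (0.66 to 0.88). SLC30A1, the plasma membrane zinc exporter and an MTF1 target like the metallothioneins, had 159, 411, 290 and 389 counts in library order. Its log2 ratios were 1.42 (1.15 to 1.69) and 1.11 (0.89 to 1.33), higher with DAC+SB in both lines but below 4-fold. Among 11 genes of zinc sensing and export, 2 of the 9 with enough counts were at least 4-fold higher in H1299 and 0 of 8 in HCT116, beside 11.0% and 9.63% of all genes. Those 2 were SLC30A8, with 0 and 102 counts (log2 at least 5.14 if the listed counts are complete), and SLC30A3, with 22 and 220 counts (log2 3.37). Both had enough counts only through DAC+SB, so the minimum fixed their calls. In HCT116, SLC30A8 had 0 and 82 counts and so was under the minimum, and SLC30A5 was the farthest below 0 at -0.78. Of 14 zinc importers, 11 had enough counts in each line and none passed 4-fold in either direction, beside 11.0% higher and 0.349% lower of all genes in H1299 and 9.63% and 3.69% in HCT116. The values farthest from 0 were those of SLC39A10 (-1.07) and SLC39A11 (-0.96) in H1299 and of SLC39A1 (-1.66) and SLC39A8 (-1.18) in HCT116. The medians of the importers were -0.34 and -0.60, beside -0.07 and -0.23 over all genes. The difference between the export and import lists was not tested.

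Copper and stress genes were described in the same way. Of 9 genes of copper handling, all had enough counts and none passed 4-fold, with medians of 0.12 in H1299 and 0.54 in HCT116, beside -0.07 and -0.23 over all genes. Over all genes 11.0% were 4-fold higher and 0.349% lower in H1299, and 9.63% and 3.69% in HCT116, which applies to both lists here. CCS, the copper chaperone of superoxide dismutase, was the farthest from 0, at 0.81 and 1.35, followed by SOD1 in H1299 (0.58) and ATOX1 in HCT116 (1.01). Of 11 genes of the metal and oxidative stress response, none passed 4-fold in H1299, where SRXN1 was at 1.58 and SLC7A11 at -1.22. In HCT116 the heat shock gene HSPA1A was higher, with 167 and 1310 counts (log2 3.66). Its near-identical copy HSPA1B, named here after its values were seen, had 5563 and 2814 counts (log2 -0.30), so how reads were divided between the copies makes the HSPA1A value uncertain. The cystine transporter gene SLC7A11 was lower, with 679 and 44 (log2 -3.26). The medians of this list were -0.27 and -0.02, with members from -1.22 to 1.58 in H1299 and from -3.26 to 3.66 in HCT116.

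The genes most like each member were those with the smallest Euclidean distance of centred log2(CPM + 1) over the 4 libraries, among 15505 genes with at least 100 counts in a library. GPX1 (distance 1.96), S100A6 (2.11) and KRT19 (2.41) were nearest to MT1E. GPX1, a glutathione peroxidase gene, was at 0.155, 167, 477 and 292 CPM in library order. FES (0.35), SFN (0.72) and TESC (0.74) were nearest to MT1F, and ACSBG1 (1.54), THY1 (1.64) and LINC00624 (1.94) to MT1G. THY1, a cell surface glycoprotein gene, was at 0, 18.8, 0.192 and 107 CPM. CD24 (0.36), ART5 (0.38) and CLU (0.38) were nearest to MT1X with the joined name, and MIR503 (0.04), PCDH1 (0.16) and LRRC4B (0.18) to MT1X alone. PRICKLE1 (0.07), SCN4A (0.09) and ZCCHC24 (0.11) were nearest to MT2A, and RP11-402P6.15 (0.12), CTC-276P9.1 (0.12) and GDPD4 (0.13) to MT1M. With 4 libraries such a distance has few points, and the closest matches of MT2A and MT1M were genes of at most 12.1 CPM in any library. The added 1 CPM shrinks the ratios of such genes, so a small distance does not mean a like ratio. SCN4A was at 0.0155 and 1.39 CPM in H1299, whereas MT2A was 2.30-fold higher with DAC+SB there. LRRC4B was at 0.0465 and 1.15 CPM in H1299, against 2.90-fold for MT1X alone.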

How the data were processed

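The authors deposited 2 tables of counts, 1 for genes and 1 for transposable elements, each giving a feature, a cell and a whole-number count. STAR and CASAVA and the build GRCh38 are named, without versions, per the submitters' processing notes. The counting tool, the annotation, the filter on cells and whether counts are of unique molecular identifiers are not named in those notes or labels. Cells were assigned to the 4 libraries by the library name at the end of the cell name. Counts were summed per gene and library with Python 3.11.15, pandas 2.3.3, numpy 2.4.6 and scipy 1.17.1 and scaled by all gene plus transposable element counts of the library. A gene at 0 was set to 3 counts for a bound. No test between groups was run, since each group was 1 library. Gene calls used at least 100 counts in the higher library and a 4-fold ratio over names of 1 gene, since 2419 names join several genes. Ratio calls were checked on simulated counts with changes only in genes well counted with DMSO. The check does not cover genes near 0 there or features that were not listed. Cells were thinned by a hypergeometric draw, and no doublet caller was run. The members and lists were chosen with earlier results of these data known. All 6 members, metallothionein genes with a count and chromosome 16 neighbours are named, except that 1 gene of the marker lists and 1 of the neighbours are not reported here and were left out of the list values. MTF1, SLC30A1 and the 2 genes farthest from 0 per line are named in the other lists, and 3 nearest genes per member. Alternatives covered numbered features, joined names, denominators, left-out cells, weighting of cells, thinning depth, minimum count and fold.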

Additional observations from a re-analysis of the deposited data

Results flagged for a closer look

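HSPA1A, a heat shock gene of the metal and oxidative stress list, had log2 ratios of opposite sign in the 2 lines, -0.29 in H1299 and 3.66 in HCT116, each beyond counting error. Its near-identical copy HSPA1B was at -0.27 and -0.30, and how reads were divided between the copies is not given by the labels. With 1 library per group the difference between the lines was not tested.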

How the results depend on the processing

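No paired analysis was run within a line, since each comparison there is of 1 library with 1 other. The groups share fewer than 2 replicate numbers. A fit over both lines with line as a block was not run. Over 7 alternatives each, the 12 log2 ratios of single members kept a value of at least 0.00, the lowest being MT1E in HCT116 as a mean over cells. Some alternatives could not move a value, since joined names change only MT1X. The numbered-feature setting left MT2A and MT1X in both lines, and MT1E and MT1F in HCT116, as they were. Unnumbered features alone were not among the alternatives, and over them MT1E, MT1F and MT2A were lower with DAC+SB in HCT116. MT2A lay between 1.14 and 1.24 in H1299 and between 0.68 and 0.88 in HCT116. The log2 ratio of the summed 6 genes was 1.33 in H1299 and 0.71 in HCT116. It was 1.21 and 0.64 with numbered features only where both libraries listed them, 1.58 and 0.96 with joined names, 1.38 and 0.79 over gene counts only, and 1.28 and 0.67 without the 5% of cells with most counts. It was 1.28 and 0.60 as a mean over cells, and 0.76 in HCT116 without cells above 25% mitochondrial counts. Genes at least 4-fold higher numbered 1612 in H1299 and 1304 in HCT116, and genes at least 4-fold lower 51 and 500. A minimum of 1 count gave 5539 and 5908 higher and 397 and 868 lower, and 2-fold gave 2673 and 2192 higher and 1072 and 2706 lower. With numbered features only where both libraries listed them, the tally of 4-fold rises fell to 1113 for H1299 and to 794 for HCT116. That of 4-fold falls became 55 and 473. The shares of 11.0% and 9.63% printed beside the gene lists come from the main setting and were not recomputed for this one. The share of cells with a count moved beyond its interval in 44 of 56 alternatives of thinning depth. The HCT116 concentrations of MT1E and MT2A in 10% of cells were recomputed after the data were seen, and without thinning they were 24.7% and 45.6% for MT1E and 27.1% and 40.8% for MT2A, DMSO first. The ratios of MT1E, MT1F, MT1G and MT1M in H1299 rest on 3 or fewer DMSO counts, and those of MT1G and MT1M in HCT116 on 5 and 1.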
